A study of Drosophila melanogaster with 14 samples.

Results

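The transcripts of 47 cell cycle and DNA replication genes were followed in *Drosophila melanogaster* embryos at the end of embryogenesis, in *sall* mutants and wild type. The genes were picked by their CG identifiers for their known roles from the 13781 genes measured, and all 47 were found. Their values were not used in the choice, but earlier results of these data were known when it was made. All 47 also passed the filter on low counts, as did 11584 of the 13244 genes with any reads. Ho embryos were homozygous for Df(2L)32FP-5 (*sall*-/-) and so lacked both *salm* and *salr*, the zinc-finger transcription factor genes of the spalt locus. He embryos were Df(2L)32FP-5/+, and WT embryos were of the Oregon R stock. Ho embryos were recognised by the lack of GFP among the progeny of the Df(2L)32FP-5/CyO-GFP stock. The fathers of He embryos were *white*- and their mothers were of that balanced stock. Strain background therefore changed with genotype and cannot be told apart from it. The 14 poly-A mRNA-Seq libraries were made from pools of 50 whole embryos of early stage 17 or early stage 16, with 3 Ho, 2 He and 2 WT libraries at each stage. Stage 16 embryos were 13 to 14 hours old, and stage 17 embryos were older. Libraries are named by genotype, stage and replicate letter, the letters a, b and c stand for separate experiments, and in libraries lettered ab the authors grouped technical replicates. Whether an ab library holds 1 pool or more is not given in the sources used here.

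Cyclin-dependent kinases (Cdks) and their cyclins drive cells through DNA replication and mitosis. The MCM helicase is loaded on origins before S phase, the replication machinery then copies the DNA, and mitotic kinases, the spindle, condensin and the cytokinesis ring divide the cell. In the fly embryo most epidermal cells leave the cycle well before hatching with the help of the Cdk inhibitor *dap*, whereas neuroblasts divide for longer and gut and salivary gland cells replicate without dividing. Since whole embryos were pooled, fewer cycling cells and less RNA per cycling cell cannot be told apart in these values.

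Reads on genes ran between 4758996 and 23210169 per library. Levels are given as normalized reads, that is, reads divided by the size factor of the library, and differences as differences of the deposited variance-stabilized values, a log2-like scale that compresses low counts. *salm* and *salr*, which the deficiency removes, had 0 to 79.8 normalized reads in the 6 Ho libraries, against 550.5 to 1543 in the 8 He and WT libraries. The highest Ho values were those of Ho17a and Ho16a (79.8 and 75.4 for *salm*), while the other 4 Ho libraries had 0 to 14.5. Ho17a also stood apart in the genes followed here, while Ho16a and Ho16c were often extreme over all tested genes as well. Ho17a was the highest of the 7 stage 17 libraries for 31 of the 47 genes (66.0%), against 15.3% of all tested genes. Ho16c had 0 reads for 5 of the 47 and for 20.5% of tested genes, while no other stage 16 library had 0 reads for any of the 47. Ho16a, the shallowest library, was the highest stage 16 library for 18 of the 47 (38.3%), against 33.9% of tested genes. WT17c was the lowest stage 17 library for 16 of the 47 (34.0%), against 18.8% of tested genes. Single genes are therefore given without Ho17a or Ho16c as well, mostly where this lowered the adjusted p. These fits were thus picked by their outcome, and for most of these genes the fits without other libraries are not given. Their adjusted p show how far a result hangs on the library left out. They are not counted as evidence that a gene fell. Fits without Ho16a are given mainly for counts of genes.

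The question of the first comparison was how the 47 genes changed between the stages. Their levels were mostly lower at stage 17 than at stage 16. In the mean over the 3 genotypes, 44 of 47 genes had a difference below 0, against 49.7% of all tested genes, and the median difference of the 47 was -0.91, against 0.01 for all tested genes. Past an adjusted p of 0.001 (limma, stage 17 minus stage 16), 3 genes fell and none rose, namely *dap* (CG1772), *RnrS* (CG8975) and *PCNA* (CG9193). Of all tested genes, 3.00% were lower and 12.1% higher at this threshold, so that 3 of 47 (6.38%) is near the background. At an adjusted p under 0.05, 23 of the 47 were lower (48.9%) and none higher, against 12.5% lower and 23.0% higher of all tested genes. At an unadjusted p under 0.05 the count was 30 lower, against 17.1% of tested genes, and none higher. In 5 of the 47 (*dap*, *RnrS*, *PCNA*, *Cdk1* and *Orc2*) all 7 libraries of stage 17 lay below all 7 of stage 16, against 5.03% of tested genes. The 23 genes came from 7 of the 8 role lists, and the spindle checkpoint list had none. The plot of stage changes by role shows each gene with its interval.

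**Figure D1:**
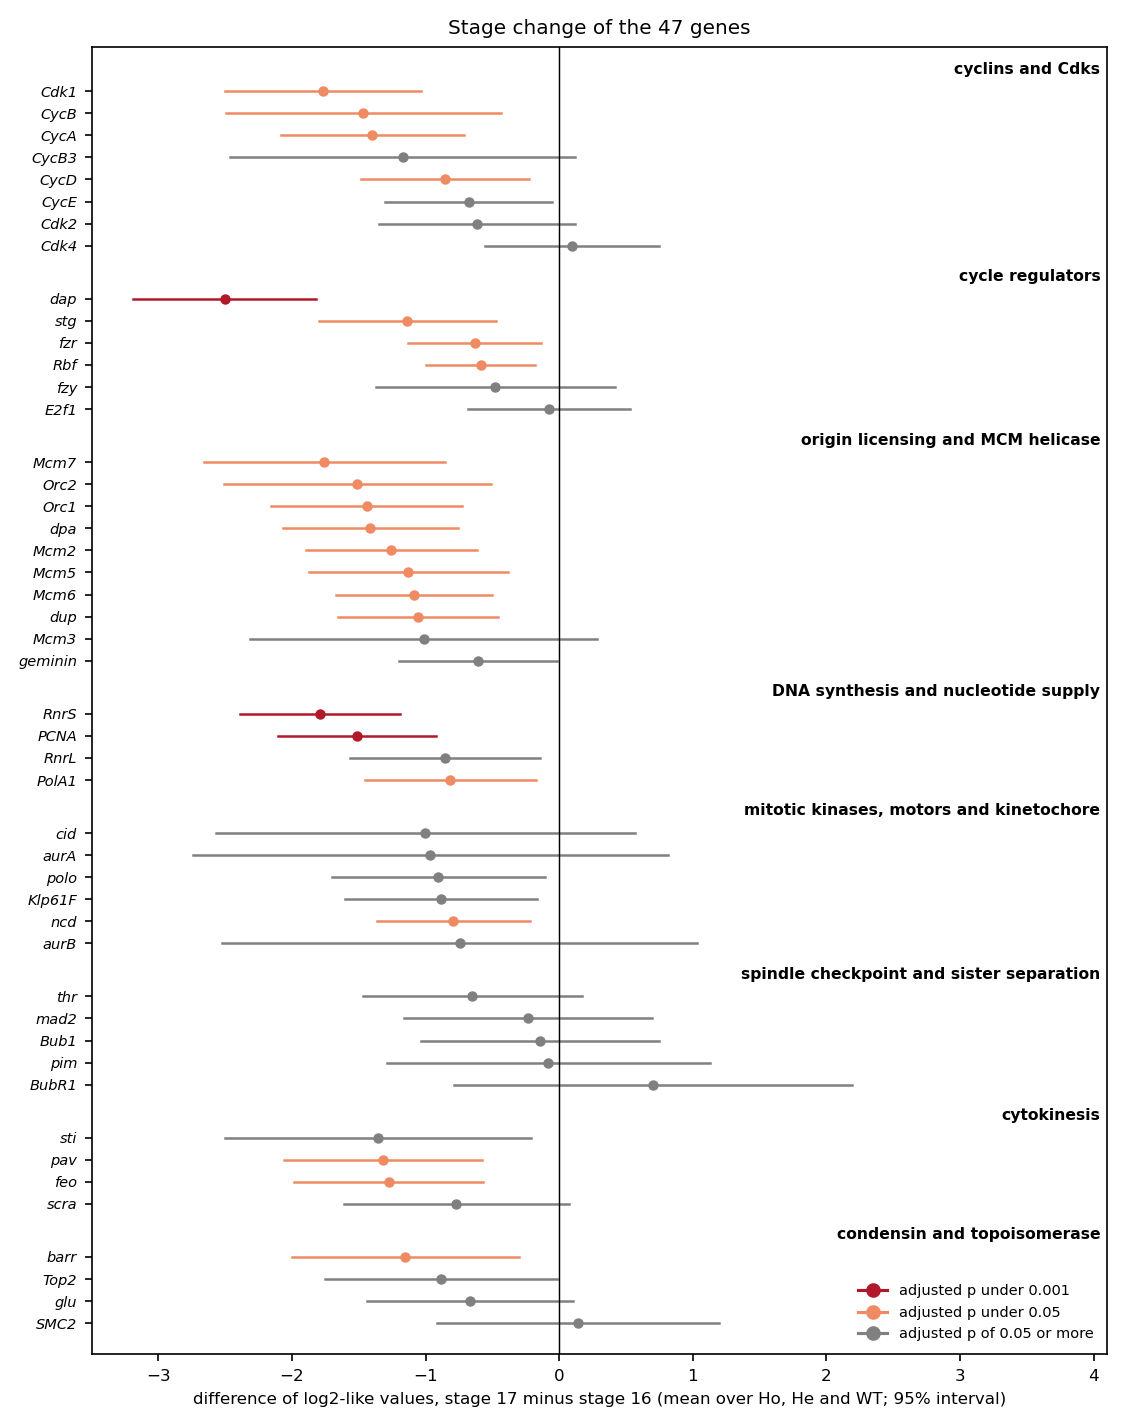
Difference of log2-like values between stage 17 and stage 16 (x axis, mean over Ho, He and WT) for each of the 47 genes in 8 role lists, with 95% intervals from limma. The 3 genes past an adjusted p of 0.001 are *dap*, *RnrS* and *PCNA*, and *Cdk4*, *BubR1* and *SMC2* are the only genes with a difference above 0.

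Among the regulators of the cycle, *dap* showed the largest drop of the 47. This gene encodes the p21/p27-type inhibitor of CycE-Cdk2. It had 199, 227 and 277 normalized reads in Ho17, 260.0 and 154 in He17 and 194 and 380.2 in WT17, against 504, 1224 and 1256 in Ho16, 1059 and 1078 in He16 and 958 and 866 in WT16. All 7 stage 17 libraries lay below all 7 of stage 16, and the lowest stage 16 value was that of Ho16a. Its difference was -2.50 (SE 0.32, adjusted p = 4.0e-05), and it stayed between -2.69 and -2.32 when each library was left out in turn, with the highest adjusted p at 0.00029. *dap* was the only 1 of the 47 that passed the threshold in all 14 of these fits.

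The other regulators had smaller differences. *stg* (CG1395), the Cdc25 phosphatase that switches on Cdk1, ran between 391 and 768 normalized reads at stage 17 with a median of 627, against 659 to 1468 with a median of 1199.6 at stage 16. Only Ho16a lay below any stage 17 library, namely Ho17a, He17ab and WT17ab, and the difference of -1.14 (SE 0.31) had an adjusted p of 0.011. *fzr*, the Cdh1-type activator of the APC/C that keeps cells in G1, had a median of 739 normalized reads at stage 17 against 1136 at stage 16 (difference -0.63, adjusted p = 0.048). *Rbf*, the retinoblastoma protein that restrains E2F, differed by -0.59 (adjusted p = 0.027). *E2f1*, the transcription factor that drives S phase genes, showed no detectable change, with a median of 2287 normalized reads at stage 17 against 2247 at stage 16. Its difference was -0.07 with a 95% interval between -0.68 and 0.53, and its sign was positive when Ho16c, He16c, WT16c, He17ab or WT17c was left out. *fzy*, the Cdc20-type activator, differed by -0.48 (adjusted p = 0.41).

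Of the cyclins and Cdks, 4 of 8 were lower at an adjusted p under 0.05. *Cdk1* (CG5363), the kinase of mitosis, missed the stricter threshold narrowly. It had 81.4, 17.9 and 11.9 normalized reads in Ho17, 31.5 and 21.1 in He17 and 43.3 and 59.9 in WT17, against 175, 179 and 131 in Ho16, 114 and 141 in He16 and 142 and 143 in WT16. No stage 17 library reached the lowest stage 16 value, and Ho17a was the highest of the 7. The difference was -1.77 (SE 0.34, adjusted p = 0.0011), and without Ho17a the adjusted p was 0.00016. *CycA*, a cyclin of S phase and mitosis, had a median of 299 normalized reads at stage 17 against 695 at stage 16 (difference -1.40, adjusted p = 0.0038). The mitotic cyclin gene *CycB* had 435, 59.6 and 89.4 normalized reads in Ho17, 107 and 116 in He17 and 459.7 and 130.3 in WT17, against 453, 421 and 560.3 in Ho16, 389.5 and 303 in He16 and 548 and 269 in WT16. Ho17a and WT17ab lay within the stage 16 range while the other 5 stage 17 libraries lay below it, and the difference was -1.47 (SE 0.47, adjusted p = 0.029). *CycD*, the G1 cyclin that pairs with Cdk4, had 228, 207 and 200.05 normalized reads in Ho17, 228 and 230.4 in He17 and 186 and 166 in WT17, against 230.3, 312 and 697 in Ho16, 355 and 391 in He16 and 286 and 304 in WT16. The stages met only at Ho16a and He17c, and the high value of Ho16c stood alone (difference -0.86, adjusted p = 0.035). *CycB3*, the other B-type mitotic cyclin, had 782, 44.3 and 60.4 normalized reads in Ho17, 108 and 119 in He17 and 168 and 112 in WT17, against 167, 283 and 445 in Ho16, 345 and 264 in He16 and 322 and 231 in WT16. With Ho17a above every stage 16 library, the difference was -1.17 (SE 0.60, adjusted p = 0.15), and without Ho17a it was -1.63 (adjusted p = 0.0017).

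*CycE*, the G1/S cyclin, did not pass either threshold. It had 184 to 475 normalized reads in stage 17 libraries, against 179 to 489 in those of stage 16. The highest of the first was that of Ho17a and the lowest of the second that of Ho16a (difference -0.68, adjusted p = 0.088). *Cdk2*, the partner of CycE, differed by -0.62 (adjusted p = 0.18), and 43.9% of its exon bases are shared with another gene, which these unstranded reads cannot assign. *Cdk4* had medians of 402 normalized reads at stage 17 and 387 at stage 16. Its difference of 0.10 had a 95% interval between -0.56 and 0.75.

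**Figure D2:**
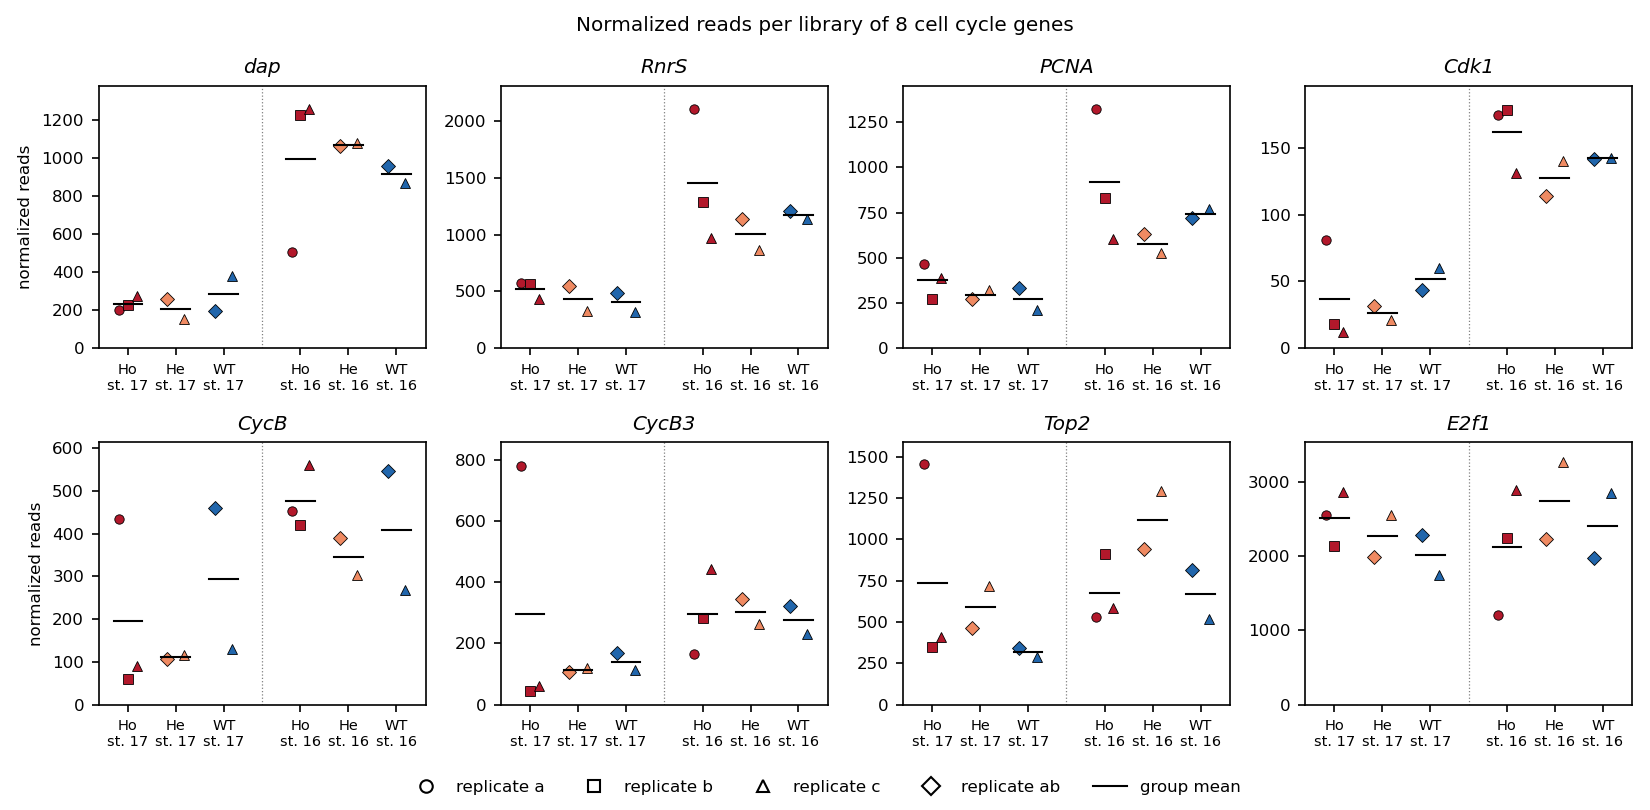
Normalized reads (y axis, from 0) of 8 genes in each of the 14 libraries, with stage 17 left of stage 16 and Ho, He and WT from left to right; symbols mark replicates and black lines group means. *dap*, *RnrS*, *PCNA* and *Cdk1* do not overlap between the stages, and Ho17a is the highest library of its stage for *CycB3* (782 normalized reads) and *Top2* (1455).

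Origin licensing was the list with the largest share of genes lower at the looser threshold, 8 of 10. These genes load the MCM helicase on origins through ORC and the Cdt1-type loader *dup*, and all 10 had differences below 0, with a median of -1.19. Ho16a was the highest stage 16 library for 8 of the 10. Its sum over the list was 6928 normalized reads, against 2961 to 4400 in the other stage 16 libraries. The differences of these genes without Ho16a are not given. *Mcm7* differed by -1.76 (SE 0.42, adjusted p = 0.0051), with 74.0 to 459 normalized reads at stage 17 and 366 to 1005 at stage 16. Ho17a was the single stage 17 library in the stage 16 range for this gene, and 81.7% of its exon bases are shared with other genes, so its value is uncertain. *Mcm2* had 374, 254 and 145 normalized reads in Ho17, 157 and 187 in He17 and 129 and 117 in WT17, against 647, 382 and 375 in Ho16, 386 and 228 in He16 and 379.7 and 406 in WT16, so that Ho17a and Ho17b reached the range of stage 16, whose lowest library was He16c. The other called helicase subunits were *dpa* (Mcm4; -1.41), *Mcm2* (-1.26), *Mcm5* (-1.13) and *Mcm6* (-1.09), with adjusted p between 0.00255 and 0.0215. *Orc1* and *Orc2*, subunits of the origin recognition complex, differed by -1.44 (adjusted p = 0.0042) and -1.51 (adjusted p = 0.022). *Orc1* had 233, 93.6 and 114 normalized reads in Ho17, 109 and 79.6 in He17 and 106 and 119 in WT17, against 488, 251 and 179 in Ho16, 321 and 192 in He16 and 385 and 321 in WT16, with Ho17a as the only stage 17 library above any of stage 16. *Orc2* was scarce, with 0 to 26.8 normalized reads at stage 17 against 35.3 to 76.2 at stage 16, and the stages did not overlap. The 0 was that of WT17c, in which a count of 0 allows up to 3 reads or 1.97 normalized reads, for counting error only. *dup* differed by -1.06 (adjusted p = 0.0093) and its inhibitor *geminin* by -0.61 (adjusted p = 0.10).

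*Mcm3* was the most uneven of the helicase genes. It had 351, 294 and 91.9 normalized reads in Ho17, 182 and 152 in He17 and 191 and 156 in WT17, against 1314, 392 and 74.4 in Ho16, 316 and 260.4 in He16 and 372 and 399 in WT16. The 3 Ho16 libraries held both the highest and the lowest of the 14 values, and He and WT libraries did not overlap between the stages. The difference was -1.02 (SE 0.60, adjusted p = 0.22), and without Ho16c it was -1.42 (adjusted p = 0.0099). That second fit kept Ho16a, whose 1314 normalized reads were the highest of the 14 values. The fit without Ho16a is not given, so a drop of *Mcm3* is not settled by leaving out Ho16c.

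The genes of DNA synthesis and nucleotide supply held 2 of the 3 that fell past 0.001. *RnrS*, the small subunit of ribonucleotide reductase, had 572, 563 and 434 normalized reads in Ho17, 546 and 328 in He17 and 490.2 and 320.4 in WT17, against 2108, 1285 and 974 in Ho16, 1141 and 866 in He16 and 1208 and 1134 in WT16. *PCNA*, the sliding clamp of the replicative polymerases, had 465, 273 and 389.9 normalized reads in Ho17, 273 and 321 in He17 and 335 and 213 in WT17, against 1326, 832 and 605 in Ho16, 630.1 and 525 in He16 and 719.8 and 770.4 in WT16. For both genes the stages did not overlap, and Ho16a was the highest library. *RnrS* differed by -1.79 (SE 0.28, adjusted p = 0.00021) and *PCNA* by -1.51 (SE 0.27, adjusted p = 0.00076). The call of *PCNA* was lost in 12 of the 14 fits that left out 1 library, with differences between -1.64 and -1.38, and that of *RnrS* in 5, without He17c, WT17c, He16ab, WT16ab or WT16c, with differences between -1.94 and -1.64. *RnrL*, the large subunit, had medians of 330.1 normalized reads at stage 17 and 573 at stage 16 (difference -0.86, adjusted p = 0.059), and without Ho16c its adjusted p was 0.00087. *PolA1*, the catalytic subunit of DNA polymerase alpha, differed by -0.82 (adjusted p = 0.048).

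Per exon length, *RnrS*, *PCNA*, *geminin*, *dap* and *fzr* were the most abundant of the 47 at stage 16, with medians of 55.7, 50.0, 38.8, 32.3 and 31.6 RPKM. At stage 17 the first places belonged to *geminin*, *E2f1*, *PCNA* and *RnrS* (22.2, 20.7, 18.3 and 17.96 RPKM), and *dap* had 5.50 RPKM. The lowest medians at stage 17 were those of *pim*, *Orc2* and *thr*, with 0.532, 0.559 and 0.585 RPKM.

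Fewer genes were called in the lists of mitosis. In the list of mitotic kinases, motors and kinetochore genes, all 6 had differences below 0, between -1.001 and -0.75, but only *ncd*, a minus-end kinesin of the spindle, passed the looser threshold (difference -0.79, adjusted p = 0.033). It had 173, 108 and 121 normalized reads in Ho17, 163 and 168 in He17 and 188 and 105 in WT17, against 417, 271 and 311 in Ho16, 233 and 147 in He16 and 275 and 202 in WT16. The stages overlapped through He16c, and 15.3% of its exon bases are shared with another gene. *polo*, the Polo kinase, had medians of 139 normalized reads at stage 17 and 271 at stage 16, with Ho17a at 477, above all stage 16 libraries. Its adjusted p was 0.074, and 0.0115 without Ho17a. *aurA* and *aurB*, the Aurora kinases, and *cid*, the centromeric histone H3 variant, were at 0 reads in Ho16c. With Ho16c, *aurB* differed by -0.75 (SE 0.82, adjusted p = 0.53), and without it by -1.37 (adjusted p = 0.016). *cid* likewise had an adjusted p of 0.32 with Ho16c and 0.018 without it, whereas *aurA*, which was also at 0 in Ho17b and WT17c, had 0.40 and 0.090. The fits without Ho16c kept Ho16a, the highest stage 16 library for *aurB* and *cid*. It had 234 normalized reads for *aurB* and 119 for *cid*. The other stage 16 libraries with reads had 66.1 to 121 and 17.6 to 41.1. Fits of these genes without Ho16a are not given. *Klp61F*, the kinesin-5 motor, differed by -0.89 (adjusted p = 0.055).

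The 5 genes of the spindle checkpoint and of sister separation had a median difference of -0.14, and none was called. *BubR1*, a checkpoint kinase, was 1 of the 3 genes with a difference above 0. It had 269, 67.2 and 49.4 normalized reads in Ho17, 129 and 112 in He17 and 95.5 and 159 in WT17, against 71.5, 94.5 and 0 in Ho16, 121 and 65.7 in He16 and 132 and 133 in WT16. Its highest value was that of Ho17a and its lowest that of Ho16c. The difference was 0.70 (SE 0.69, adjusted p = 0.47), and with both libraries left out it was -0.05. *thr*, a partner of separase, differed by -0.65 (adjusted p = 0.21), *Bub1* by -0.14 and *mad2* by -0.23. *pim*, the fly securin, had at most 19.0 normalized reads in any library and differed by -0.08 with a 95% interval between -1.29 and 1.12.

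Cytokinesis genes had the most negative median of the 8 lists, -1.30. *pav*, a kinesin-6 of the central spindle, differed by -1.32 (adjusted p = 0.0089), with medians of 58.5 normalized reads at stage 17 and 155 at stage 16. *feo*, the PRC1-type microtubule bundler, had 154, 140.4 and 75.8 normalized reads in Ho17, 86.4 and 71.2 in He17 and 134 and 36.2 in WT17, against 413, 294 and 239 in Ho16, 204 and 148 in He16 and 226 and 148 in WT16. Only Ho17a exceeded any stage 16 library, and the difference was -1.28 (adjusted p = 0.0081). *sti*, the citron kinase, had 426, 109 and 136 normalized reads in Ho17, 145 and 82.4 in He17 and 117 and 62.5 in WT17, against 302, 421 and 36.7 in Ho16, 382 and 479 in He16 and 365 and 285 in WT16. Ho16c lay below all 7 stage 17 libraries and Ho17a above 6 of the 7 stage 16 libraries, while He and WT did not overlap between the stages. The difference was -1.36 (SE 0.53, adjusted p = 0.064), and without Ho16c it was -1.70 (adjusted p = 0.0013). *scra*, the anillin of the contractile ring, differed by -0.77 (adjusted p = 0.15), with 597 normalized reads in Ho17a against 184 to 229.7 in the other 6 stage 17 libraries.

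In the list of condensin and topoisomerase genes, which compact and disentangle chromosomes, *barr*, the kleisin of condensin, was lower at the looser threshold (difference -1.15, adjusted p = 0.036). It had 222, 100.4 and 35.8 normalized reads in Ho17, 111 and 81.0 in He17 and 98.0 and 105 in WT17, against 131, 333 and 118 in Ho16, 280.3 and 287 in He16 and 239 and 172 in WT16. Ho17a was again the only stage 17 library in the range of stage 16. *Top2*, the type II topoisomerase, had 1455, 351 and 406 normalized reads in Ho17, 464 and 718 in He17 and 343 and 289 in WT17, against 532, 909.7 and 582 in Ho16, 944 and 1292 in He16 and 818 and 520.2 in WT16. The value of Ho17a exceeded every other library of either stage. The difference was -0.89 (adjusted p = 0.11), and without Ho17a the adjusted p was 0.0063. *glu*, the SMC4 subunit, had an adjusted p of 0.17 with Ho17a and 0.013 without it. *SMC2*, the partner of *glu*, differed by 0.14 (95% interval between -0.92 and 1.19), and by -0.33 with Ho17a and Ho16c left out, since it had 253 normalized reads in Ho17a and 4.59 in Ho16c.

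Ho17a thus differed from the other stage 17 libraries in most genes of the list. The summed normalized reads of the 47 genes were 19736 in Ho17a, against 10663 to 12479 in the other 6 stage 17 libraries and 19691 to 21496 in the 7 stage 16 libraries. As a share of all reads, the sum was 1277 CPM in Ho17a, against 698 to 755 CPM in the other 6 and 1138 to 1726 CPM at stage 16. Compared with the mean of Ho17b and Ho17c, Ho17a was higher by more than 1 on the log2-like scale for 25 of the 47 genes (53.2%), against 10.5% of all tested genes.

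**Figure D3:**
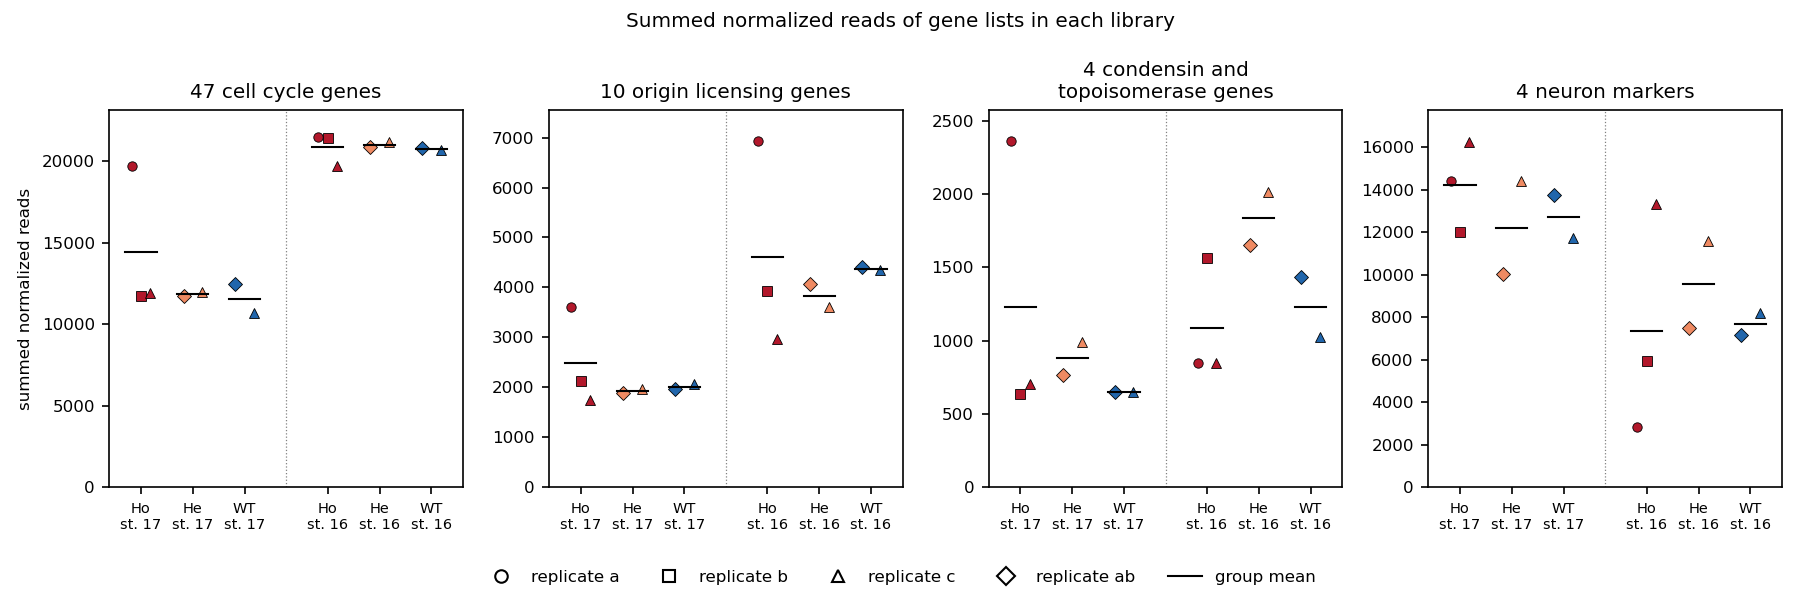
Summed normalized reads (y axes, from 0) of the 47 genes, of 2 role lists among them and of 4 neuron marker genes in each library, with stage 17 left of stage 16, symbols for replicates and black lines for group means. For the 47 genes Ho17a (19736) lies among the stage 16 libraries, while for the neuron markers (14416) it lies within the range of the other stage 17 libraries.

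The excess of Ho17a was uneven over the roles. Its median over the mean of Ho17b and Ho17c was 1.98 for condensin and topoisomerase genes, 1.65 for cytokinesis, 1.60 for the spindle checkpoint list, 1.45 for mitotic kinases and motors, 1.26 for cyclins and Cdks and 1.12 for origin licensing. It was 0.34 for the cycle regulators and 0.09 for DNA synthesis and nucleotide supply, and it was 0 for all tested genes. *CycB3*, a mitotic cyclin gene, had the largest excess, 4.17, with 782 normalized reads in Ho17a against 44.3 and 60.4 in Ho17b and Ho17c, and 108 to 445 in the 11 remaining libraries. *CycB* (2.69), *Mcm7* (2.51), *Top2* (2.49), *fzy* (2.25) and *aurB* (2.24) followed. *RnrS*, *RnrL*, *PolA1*, *E2f1* and *dap* differed by -0.36 to 0.26 between Ho17a and the mean of the other Ho17 libraries.

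Some of the markers of other cell populations moved with Ho17a as well. *mira* and *dpn*, which mark neuroblasts, had 1197 and 183 normalized reads in Ho17a, against 486 to 780 and at most 141 in the other 6 stage 17 libraries. Of the other 4 neuroblast markers, *grh* was also highest in Ho17a (2891 against 1529 to 2868), *ase* was lowest there, and *wor* and *insc* lay within the range of the others. The summed level of the 6 neuroblast markers was 7699 in Ho17a, against 5211 to 7626 in the other 6. Most of the Ho17a sum came from *insc* (3286) and *grh* (2891), and whether their reads came from neuroblasts cannot be told in whole embryos. The 4 neuron markers (*elav*, *nSyb*, *Syt1* and *brp*) summed to 14416 in Ho17a, against 10026 to 16223. The 3 germ cell markers measured summed to 248, against 285 to 421. The part of cell composition, and of the reads on *salm*, in the values of Ho17a was not tested.

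Ho16a and Ho16c departed from the other stage 16 libraries in different roles. Ho16a was the highest of 7 for 8 of 10 origin licensing genes and 4 of 6 mitotic kinases, motors and kinetochore genes, and the lowest of 7 for 4 of 6 cycle regulators and 4 of 8 cyclins and Cdks. Among all tested genes it was the highest for 33.9% and the lowest for 25.9%. Its median difference from the other libraries of the stage was 0.94 for origin licensing and -1.14 for the cycle regulators. Ho16c was the lowest for 18 of the 47 genes (38.3%), against 30.7% of tested genes, and its 0 values were those of *aurA*, *aurB*, *cid*, *BubR1* and *pim*. In Ho16c a count of 0 allows up to 2.76 normalized reads. The neuron markers summed to 2815 in Ho16a and 13337 in Ho16c, against 5937 to 11565 in the other 5 stage 16 libraries, so that these libraries also stood at the ends of the stage in those genes. The part of this in the values of the 47 genes was not tested.

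**Figure D4:**
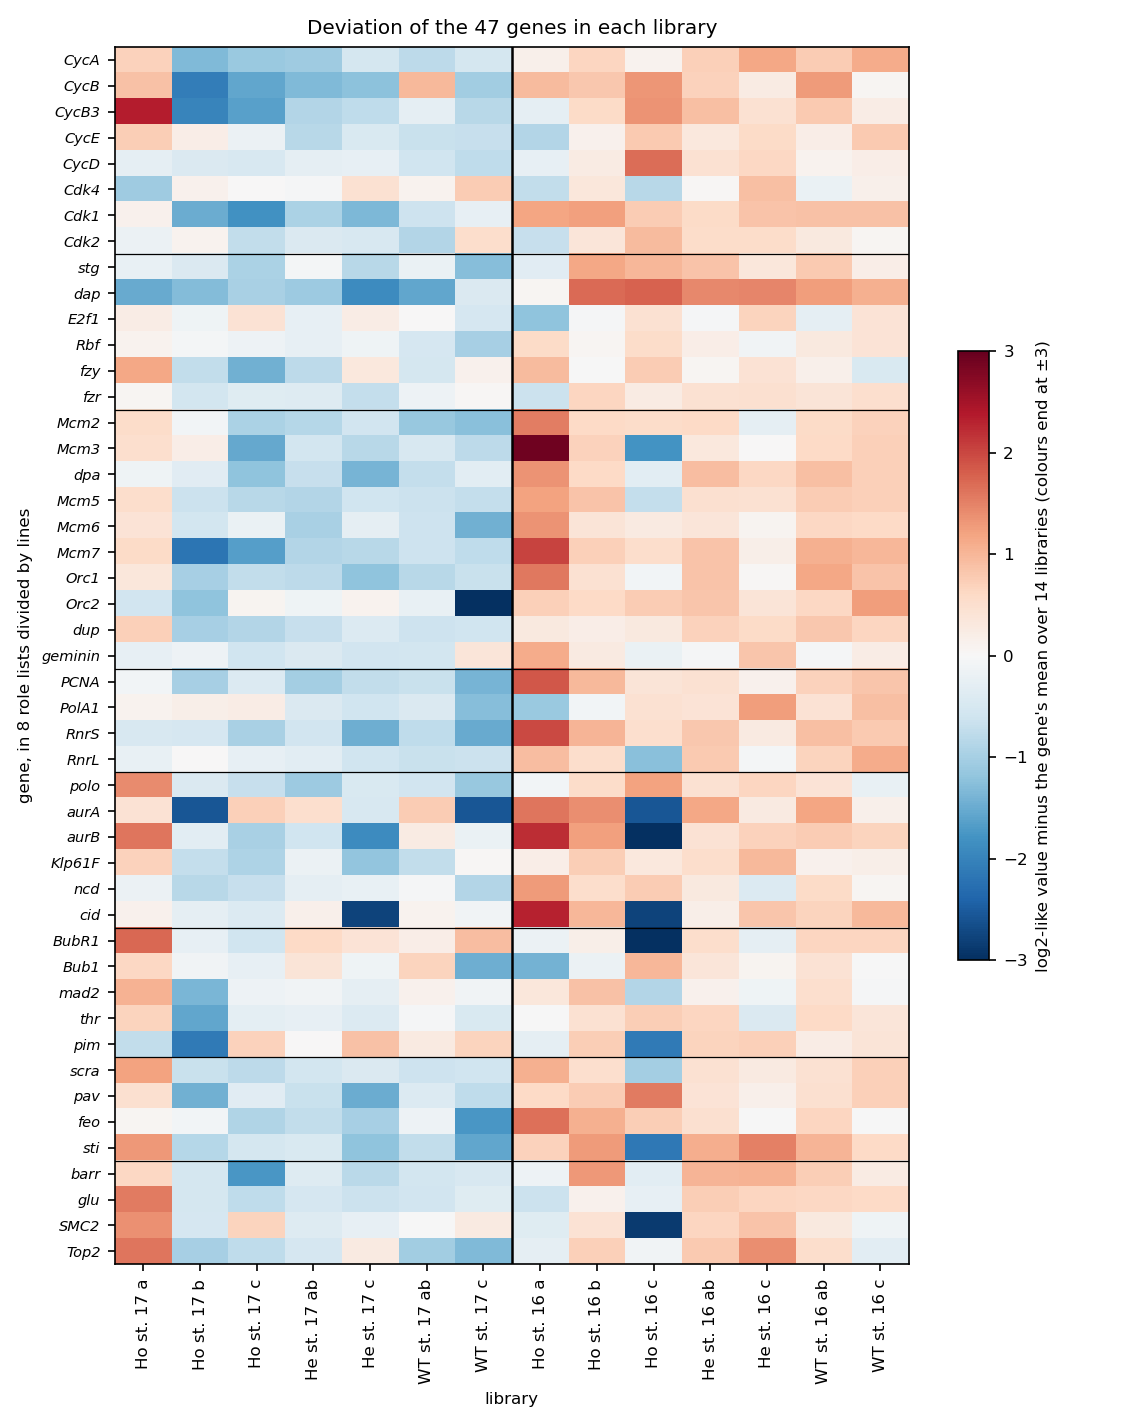
Deviation of each of the 47 genes (rows, in 8 role lists) from its mean over the 14 libraries (columns, stage 17 left of stage 16), in log2-like units with red above and blue below the mean. Most stage 17 cells are blue and most stage 16 cells red, with Ho17a mostly red and 5 genes at 0 reads in Ho16c in dark blue.

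With Ho17a left out, 6 of the 47 were lower past 0.001 (2.54% of tested genes) and 29 at 0.05 (11.5%). With Ho16c left out the counts were 8 (4.77%) and 31 (19.4%), and with both left out, a choice made after the data were seen, 14 (4.57%) and 35 (19.1%). Leaving out Ho16c thus also raised the share of all tested genes that were lower, which was 3.00% past 0.001 with all 14 libraries. The median difference of the 47 was -1.20 without both libraries. Among single genes the sign then changed for *SMC2* (-0.33), *BubR1* (-0.05) and *E2f1* (0.04) only.

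Within each genotype fewer libraries were compared, and none of the 47 genes passed 0.001 in limma. In Ho, 1.04% of tested genes were lower past that threshold. At 0.05, 7 of the 47 were lower in Ho (14.9%), against 8.49% of tested genes, namely *dap*, *RnrS*, *Cdk1*, *PCNA*, *ncd*, *Mcm7* and *feo*. In He, 1 gene (*dap*, difference -2.94, adjusted p = 0.0047) was lower at 0.05, which is 2.13% and near the 2.23% of tested genes. In WT, 5 were lower (*RnrS*, *dap*, *PCNA*, *Mcm2* and *Mcm6*), which is 10.6%, against 2.74%. No gene of the 47 was higher at 0.05, against 18.6% of tested genes in Ho, 9.19% in He and 10.5% in WT. Past 0.001, 0.501% of tested genes were lower in He and 0.596% in WT. With recovered reads, the exact test of the negative binomial kind that the study's tool ran called 1 of the 47 lower past 0.001 in Ho (3.60% of tested genes), 8 in He (3.12%) and 5 in WT (2.56%), read against the genes tested there. *dap* was lower in all 3 of these tests, and *RnrS* and *sti* in He and WT.

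Differences below 0 were found for 37 of the 47 genes in Ho (45.8% of tested genes), 46 in He (49.6%) and 44 in WT (48.5%), with medians of -0.73, -1.10 and -1.18. Libraries of the stages did not overlap, with stage 17 lower, for 10 genes in Ho (13.5% of tested genes), 37 in He (29.9%) and 35 in WT (28.4%). Among the lists, condensin and topoisomerase had medians of 0.09 in Ho, -1.24 in He and -1.04 in WT, and origin licensing had -0.97, -1.05 and -1.52. Without Ho17a the median of all 47 in Ho was -1.13, and 13 genes were lower at 0.05 (6.42% of tested genes).

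**Figure D5:**
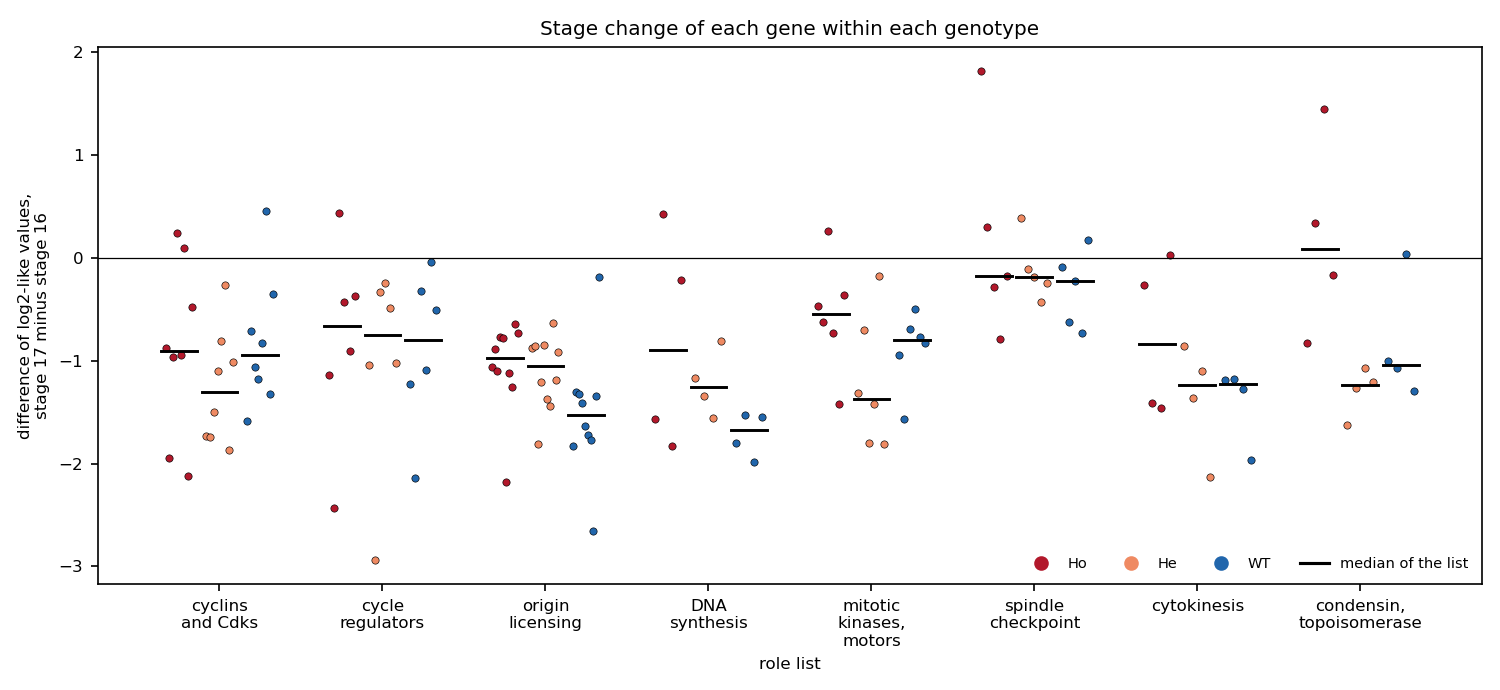
Difference of log2-like values between stage 17 and stage 16 (y axis) of each gene within Ho, He and WT, by role list (x axis), with black lines for the median of the list. In He and WT nearly all points lie below 0, and the widest scatter above 0 is that of Ho in the spindle checkpoint list (*BubR1*, 1.81) and in condensin and topoisomerase (*SMC2*, 1.45).

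Whether the stage change differed between genotypes was tested as an interaction. No gene of the 47 passed 0.05 in limma for Ho minus WT (0.00863% of tested genes were higher and 0% lower) or He minus WT (0% in either direction). At an unadjusted p under 0.05, 1 gene was higher in Ho minus WT and none lower, against 2.37% and 1.81% of tested genes, and none passed in He minus WT, against 0.207% higher and 0.319% lower. This gene was *PolA1*, for which the stage change was 0.42 in Ho and -1.53 in WT, a difference of 1.95 (SE 0.70, 95% interval between 0.43 and 3.47, adjusted p = 0.98 in limma). *PolA1* had 243, 255 and 264 normalized reads in Ho17 and 172 and 94.7 in WT17, and 107, 216 and 300.4 in Ho16 and 296 and 395 in WT16. The Ho17 libraries lay above the WT17 libraries, while at stage 16 Ho and WT overlapped. The median over the 47 genes of the interaction of Ho with WT was 0.42, against 0.07 for all tested genes, and it was 0.03 without Ho17a, 0.22 without Ho16c and -0.26 without both.

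The question of the last comparisons was whether loss of *sall* changed these genes at either stage. No gene of the 47 passed 0.05 in limma in any of the 6 comparisons of genotypes, in which at most 0.0950% of tested genes were called in a direction. In Ho against WT, 0.0691% of tested genes were higher and 0.0950% lower at stage 17, and 0.0432% higher and 0.0518% lower at stage 16. The smallest adjusted p of a gene in the list was 0.59 in Ho against WT at stage 17, and 0.71 or more in the other 5. At an unadjusted p under 0.05, 1 gene (*Rbf*) was higher in Ho than WT at stage 17 (4.08% of tested genes) and 1 (*PolA1*) lower in Ho than He at stage 16 (3.82%), with none in the other 4. The exact test called none of the 47 past 0.001, and its smallest adjusted p were 0.016 in Ho against He and 0.045 in Ho against WT, both at stage 17. Both values lie under 0.05, and whether they rest on Ho17a was not tested. The 95% interval of the difference between Ho and WT reached 1.23 to either side for the median gene of the 47, so that a difference of 1 on the log2 scale lay within the error for most of them.

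At stage 17, *Rbf* had 1006, 919 and 875 normalized reads in Ho17, against 727 and 553 in WT17, with 830.3 and 887 in He17. All Ho17 libraries lay above both WT17 libraries, and the difference from WT was 0.72 (SE 0.32, 95% interval between 0.03 and 1.399, adjusted p = 0.59 in limma). Without overlap, 8 of the 47 were higher in Ho17 than in WT17 (13.4% of tested genes) and none was lower (15.8%). These were *CycE*, *CycD*, *Rbf*, *Mcm2*, *Mcm6*, *PolA1*, *RnrL* and *Top2*. For *CycD*, *Rbf*, *Mcm2*, *Mcm6*, *PolA1* and *Top2*, WT17c was the lowest of all stage 17 libraries. The median difference of Ho from WT over the 47 genes was 0.23 at stage 17, against -0.04 for all tested genes, and -0.14 without Ho17a, against -0.03. At stage 16 it was -0.12, against -0.10 for all tested genes, and 0.09 without Ho16c, against 0.01. Here *feo* and *Klp61F* were higher and *CycA*, *dup*, *glu* and *BubR1* lower in Ho16 than in WT16 without overlap (8.50% of tested genes higher and 10.8% lower). *CycA* had 508, 667 and 494 normalized reads in Ho16, against 715 and 857 in WT16.

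In He, which carry 1 copy of the deficiency, the medians of the differences from WT over the 47 genes were -0.05 at stage 17 and -0.04 at stage 16, against -0.02 and 0.01 over all tested genes. Of the 47 genes, 26 (55.3%) lay below WT in He at each stage, near the 51.6% of tested genes at stage 17 and 48.3% at stage 16. *Top2* was above WT in He at both stages, by 1.07 (95% interval between -0.53 and 2.66) at stage 17 and by 0.98 (between -0.61 and 2.58) at stage 16.

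The wider pathway was read from a further 70 genes of replication, mitosis and cycle control. Of these 70, 10 were lower at stage 17 at an adjusted p under 0.05, a share near the 12.5% of all tested genes. Only 2 were higher, against 23.0% of tested genes. Differences below 0 were found for 59 of the 70, against 49.7% of tested genes, and the median was -0.44. Among the 24 replication genes, *RfC38* of the clamp loader (-1.49), *Orc5* (-1.12), the primase subunit gene *Prim2* (-1.10) and *PolA2* (-1.04) were lower, and the other primase subunit gene, *Prim1*, was higher (0.97, adjusted p = 0.0055). Among the 27 mitosis genes, *tum*, the RacGAP that works with *pav* (-1.48), *cmet*, a CENP-E-type kinesin (-1.18), *Spc105R* (-1.10) and *Cenp-C* (-1.07) of the kinetochore and *borr* of the chromosomal passenger complex (-0.98) were lower and none was higher. Among the 19 regulators, *trbl*, which promotes the loss of the Stg protein in the fly embryo, rose by 2.29 (SE 0.24, adjusted p = 7.9e-06), and *ago*, an F-box protein that targets CycE, was lower (-0.47, adjusted p = 0.049).

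Markers of cell populations changed between the stages as well. The neuroblast gene *mira* had 486 to 1197 normalized reads at stage 17, against 1285 to 1957 at stage 16, and fell by 1.49 on the log2 scale (SE 0.25, adjusted p = 0.00050). *ase* was lower (-1.28) and *insc* higher (0.62) at an adjusted p under 0.05, and the other 3 of the 6 neuroblast markers were not called. The neuron genes *brp* (1.57), *nSyb* (1.49) and *Syt1* (1.44) were higher at stage 17, with adjusted p between 0.0032 and 0.023, while *elav* differed by -0.95. The summed neuron markers ran between 10026 and 16223 normalized reads at stage 17 and between 2815 and 13337 at stage 16. None of the 3 germ cell and the 3 midgut and salivary gland markers was called. The part of these populations in the stage change of the 47 genes was not tested.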

How the data were processed

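Pools of 50 embryos were sequenced as poly-A mRNA libraries with a kit that does not mark strand. Reads were aligned by the authors with Bowtie (FlyBase r5.22 as reference), gene counts were made with Genominator, and DESeq served for normalization. The deposited values are variance-stabilized on a log2-like scale, on which 0 reads stand at -0.0396. The stage field of the labels gives stage 16 for all samples, so stage was taken from the titles.

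Whole reads were recovered from the deposited log2 values, which step along 1 shared curve; of 156839 values, 99.9% lay no more than 0.05 from a whole number, and those outside stood for 20112 reads or more. The recovered reads were divided by median-ratio size factors. RPKM used exon lengths of the Release 6 annotation, from which names were also taken; since this is not the authors' build, no coordinates are given.

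Main test: limma 3.58.1 in R 4.3.3 on the deposited values of all 14 libraries, with 1 mean per genotype and stage, moderated variances following a trend with the mean (residual degrees of freedom 8, prior 4.58), 2-sided, with Benjamini-Hochberg adjustment over 11584 genes. The threshold was an adjusted p under 0.001, and 0.05 was the looser one. Genes were tested if 2 or more libraries held the equivalent of 10 reads at median depth and all libraries together held 15. Scripts were tested on simulated data. Replicates were from separate experiments, with technical replicates grouped by the authors in the ab libraries. Groups of 2 or 3 libraries and, for genes with few reads, counting error limit the precision.

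The 47 genes and all lists were chosen with earlier results of these data known. Genes described with values are, per role list, the 2 with the largest and the 1 with the smallest stage change, the regulators *stg*, *CycE*, *dap*, *fzr*, *E2f1*, *CycD* and *PCNA*, and the remaining genes of the list; non-members named one by one, *Rbf* and *PolA1* between genotypes and the genes named for Ho17a were chosen after their values were seen. Fits of single genes without Ho17a or Ho16c were likewise picked mostly for a lower adjusted p. Of 72 further pathway genes 70 were matched. A planned promoter motif search was not run.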

Additional observations from a re-analysis of the deposited data

How the results depend on the processing

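The count of genes lower at stage 17 past 0.001, which was 3 in the mean over genotypes, ran between 1 and 8 when each library was left out in turn. It was 1 without He17c, WT17c, He16ab, WT16ab or WT16c, 6 without Ho17a and 8 without Ho16c. It was 14 with Ho16c and Ho17a left out together (4.57% of tested genes lower) and 7 with scaling by total reads (4.37%), both chosen after the data were seen, 9 with a trend on gene length removed (8.07%), and 23 at an adjusted p under 0.05, against 3.00% of tested genes lower past 0.001 in the fit reported. Scaling by total reads moved the median of all tested genes to -0.17 and the removal of the length trend moved it to -0.33, while the median of the 47 genes was then -1.01 and -1.19.

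Within Ho the count of 0 became 1 without Ho16a, without Ho16c, with both of these left out and in the exact negative binomial test, 2 with Ho16c and Ho17a left out (1.65% of tested genes lower) or with the length trend removed (3.69%), against 1.04% in the fit reported, and 7 at 0.05. In He it became 1 without Ho16a, with Ho16a and Ho16c left out and at 0.05, and 8 in the exact test. In WT it became 5 at 0.05 and 5 in the exact test. Leaving out each library in turn gave counts of 0 to 1 within Ho and He and 0 within WT. All counts between genotypes and for interactions stayed at 0 past 0.001 in every alternative run. With the replicate letter as a replicate block no count past 0.001 changed (3 over genotypes), and the counts at 0.05 were 24 over genotypes, 8 in Ho, 3 in He and 5 in WT, against 23, 7, 1 and 5 without it. Deviations of c libraries correlated between 0.021 and 0.335, above 0.1 for 12 of 15 pairs of groups. Since 3 pairs were not above 0.1, the letters were not taken to pair samples, but all 15 correlations were above 0. In He and WT, genes at 0 reads numbered 1376 to 1812 in ab libraries and 2570 to 2803 in the deeper c libraries. Any difference shared by c libraries thus counts as spread between replicates in the fit reported.

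Of the single genes, 6 changed sign in some alternative, all of them genes that were not called. *Cdk4* was -0.15 without Ho16a and Ho16c, -0.14 with scaling by total reads and -0.10 with the length trend removed, and leaving out 1 library gave -0.050 to 0.24. *E2f1* was 0.038 without Ho16c and Ho17a, and -0.23 to 0.044 with 1 library left out. *BubR1* was -0.046 without Ho16c and Ho17a. *Bub1* ran between -0.50 and 0.22 with 1 library left out. *pim* was 0.26 with reads thinned to the shallowest library, and -0.35 to 0.15 with 1 library left out. *SMC2* was -0.32 without Ho16a and Ho16c, -0.33 without Ho16c and Ho17a, -0.083 with scaling by total reads and -0.12 with the length trend removed, and -0.19 to 0.37 with 1 library left out. The causes were not tested. *PCNA* was also not called with a pseudocount of 0.1 (-1.23).

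For the mean over genotypes, a fit of only the libraries compared is the main fit itself. At the depth of these libraries *aurA*, *cid*, *pim*, *mad2* and *Orc2*, with medians under 50 normalized reads at both stages, and *Cdk1*, *aurB* and *thr*, under 50 at stage 17, are the members most open to counting error, and intervals cover the spread between libraries only.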
